A study of Naumovozyma castellii with 14 samples.

Results

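The small nucleolar RNAs (snoRNAs) and spliceosomal small nuclear RNAs (snRNAs) of Naumovozyma castellii, a budding yeast with a working RNA interference pathway, are described here across 14 total RNA libraries. All features that the deposited table types as snoRNA or snRNA were taken, distinct by position and strand, without use of their values. This gave 40 members, 37 snoRNAs and 3 snRNAs, of 8343 distinct features. The table names them by Ensembl-style identifiers alone, so no member could be assigned to the box C/D or the box H/ACA family or to a particular spliceosomal RNA.

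All strains are MATalpha ura3-1 ho and were grown at 25 °C in rich medium to an optical density of 0.5. The 5 groups are upf1 cells (upf1::kanMX6) given the translation inhibitor cycloheximide (upf1 CHX, 2 libraries), WT cells given cycloheximide (WT CHX, 2 libraries), untreated cells that also carry the dcr1 mutation (dcr1 upf1, 2 libraries), untreated upf1 cells (4 libraries) and untreated WT cells (4 libraries). Treated cells had 100 µg/mL of the drug in the medium for 15 min. Upf1 is an RNA helicase that nonsense-mediated mRNA decay depends on, and Dicer, the product of dcr1, cuts double-stranded RNA. Each genotype is 1 strain, and nothing in the labels says that libraries of a group came from separate cultures, so the p-values measure the spread between these libraries. NAM7, the gene for Upf1, had 0 reads in all 8 libraries without Upf1 and from 1074 to 2584 reads in the 6 WT and WT CHX libraries. No feature is named DCR1, so that mutation was not checked here. The libraries held 7895089 to 22437334 reads over the listed features.

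SnoRNAs guide the chemical modification of ribosomal RNA: in yeasts the box C/D family directs ribose methylation by the methyltransferase Nop1, the box H/ACA family directs pseudouridine formation by Cbf5, and a few members of each are needed to cut the ribosomal RNA precursor. SnRNAs form the core of the spliceosome, the particle that removes introns. Neither kind of RNA is translated. In S. cerevisiae most snoRNAs are transcribed from their own promoters, while some lie in introns of protein-coding genes or are cut out of a shared precursor with several snoRNAs.

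The unit of every level below is the deposited normalised density, a read count divided by the library's size factor and by the feature length, in reads per nucleotide. The deposited size factors match the snoRNAs. When size factors were recomputed as medians of ratios, those from the 37 snoRNAs departed from the deposited factors by 0.03 (log2) in the library where they differed most. The same departure was 0.58 with the 3 snRNAs, 0.90 with 5480 mRNAs read in every library, 1.03 with 222 tRNAs and 0.92 with all features. A level on the deposited scale is therefore a level relative to the typical snoRNA of the same library, the median change of the snoRNAs lies near 0 by construction, and an RNA called higher or lower below moved relative to the other snoRNAs. Whether the amount of snoRNA per cell changed cannot be read from these values. The labels' protocols mention an RNA spike-in, which is not analysed here.

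By density in these libraries the snoRNAs fell into long dense and short less dense ones. Within each of the 14 libraries every long one was denser than every short one. Across libraries the 18 snoRNAs of 125 to 355 nt had densities of 62.4 to 755 in single libraries, and the 19 snoRNAs of 79 to 111 nt had 1.54 to 73.6. Only 1 short snoRNA had, in some library, a density that a long one had in another: ENSRNA049639782 (95 nt; chromosome 1, 1970268 to 1970362, minus strand). Mean densities over the 14 libraries ran from 72.3 to 676 in the long snoRNAs (median 183) and from 3.24 to 46.8 in the short ones (median 6.46). The split at a gap in length was drawn after the values were seen, so it is given without a test. Across the 37 snoRNAs log2 length and log2 mean density had a Pearson r of 0.81 and a Spearman rho of 0.74. This is a description: the snoRNAs share the same libraries, and length also enters the density as its divisor. How well the libraries capture short RNAs was not tested, so dense and scarce refer to the libraries and not to the cells. All 302 tRNAs together held 0.51% to 0.97% of the non-rRNA density.

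**Figure D1:**
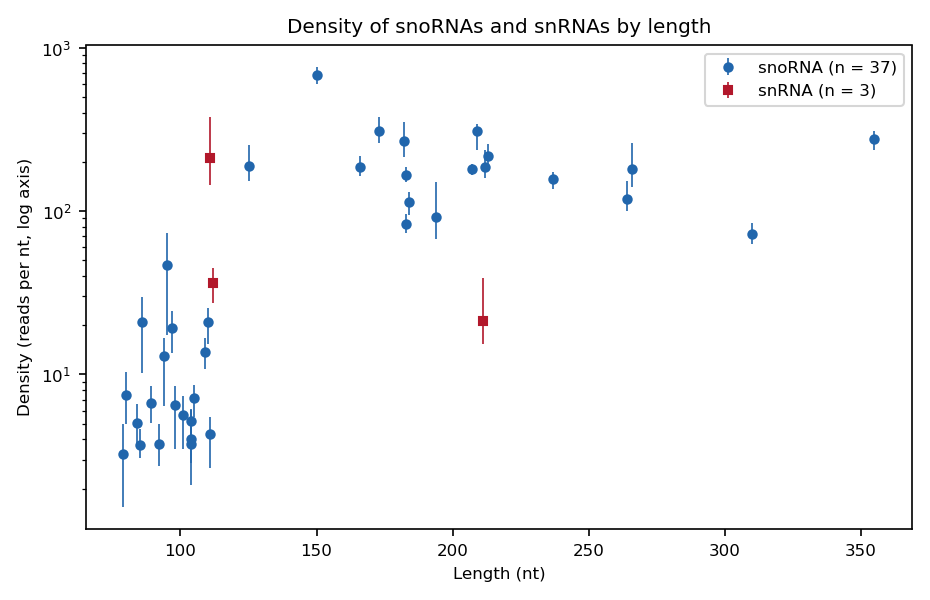
Length of each snoRNA and snRNA (nt) against its density (reads per nt, log axis). Points are means over 14 libraries and bars run from the lowest to the highest library; short snoRNAs have means of 3.24 to 46.8 and long ones 72.3 to 676.

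The densest member was ENSRNA049639944 (150 nt; chromosome 2, 1558950 to 1559099, plus strand), at 751 and 709 in upf1 CHX, 702 and 755 in WT CHX, 621 and 684 in dcr1 upf1, 711, 652, 601 and 711 in upf1, and 628, 630, 652 and 661 in WT. It alone made up 15.1% to 18.8% of the summed snoRNA density of a library. ENSRNA049639959 (125 nt), which lies 124 nt downstream on the same strand, had a mean density of 189. The next densest snoRNAs were ENSRNA049639771 (173 nt, mean 311), ENSRNA049639735 (209 nt, mean 308), ENSRNA049639850 (355 nt, mean 277), ENSRNA049639933 (182 nt, mean 270) and ENSRNA049639869 (213 nt, mean 218), and ENSRNA049639959 and ENSRNA049639716 (212 nt, mean 187) completed the first 8. These 8 held 59.6% to 62.5% of the summed snoRNA density, and the 19 short snoRNAs together held 3.35% to 6.39%.

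The scarcest snoRNAs were ENSRNA049639819 (79 nt, mean density 3.24), ENSRNA049639806 (85 nt, mean 3.71) and ENSRNA049639828 (92 nt, mean 3.72). Every member was nonetheless read in every library: the lowest count was 91 reads, for ENSRNA049639819, and the highest 211400, for ENSRNA049639944. The 40 members thus all passed the minimum mean density of 0.02 for testing.

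The 3 snRNAs did not follow the order by length. ENSRNA049639701 (111 nt; chromosome 8, 255646 to 255756, plus strand) had a mean density of 210, higher than most of the long snoRNAs. ENSRNA049639882 (112 nt; chromosome 3, 670477 to 670588, minus strand) had a mean of 36.3. ENSRNA049639705 was the longest of the 3 and the least dense (211 nt; chromosome 9, 132630 to 132840, plus strand; mean 21.3).

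SnoRNAs took a smaller share of the non-rRNA density in cells given cycloheximide than in untreated cells. Their share was 18.5% and 19.5% in upf1 CHX, 17.6% and 17.1% in WT CHX, 27.2% and 26.3% in dcr1 upf1, 26.4%, 26.0%, 23.8% and 25.6% in upf1, and 25.1%, 27.1%, 28.8% and 27.5% in WT. The 4 libraries with cycloheximide lay below all 10 without it, and the 3 untreated groups overlapped. The group means were 19.0 ± 0.719% in upf1 CHX, 17.3 ± 0.347% in WT CHX and 26.8 ± 0.628% in dcr1 upf1 (SD, n = 2 each), and 25.5 ± 1.12% in upf1 and 27.1 ± 1.52% in WT (SD, n = 4 each). The share does not depend on the size factors. It has no test of its own, since it sums the members, and overlapping features enter its denominator more than once.

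The mRNAs moved the other way relative to the snoRNAs. On the deposited scale the summed mRNA density exceeded the summed snoRNA density by a log2 ratio of 1.94 ± 0.07 in upf1 CHX, 2.12 ± 0.03 in WT CHX and 1.24 ± 0.05 in dcr1 upf1 (SD, n = 2 each), and by 1.35 ± 0.08 in upf1 and 1.24 ± 0.12 in WT (SD, n = 4 each). More mRNA per cell and less snoRNA per cell cannot be told apart here. The snRNA share was 1.04% to 1.22% in upf1 CHX, 1.05% to 1.096% in WT CHX, 1.40% to 1.60% in dcr1 upf1, 1.30% to 2.69% in upf1 and 1.59% to 2.34% in WT. As reads rather than densities the snoRNAs took 4.55 ± 0.259% in upf1 CHX, 4.01 ± 0.0306% in WT CHX and 7.13 ± 0.123% in dcr1 upf1 (SD, n = 2 each), and 6.81 ± 0.268% in upf1 and 7.39 ± 0.692% in WT (SD, n = 4 each).

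**Figure D2:**
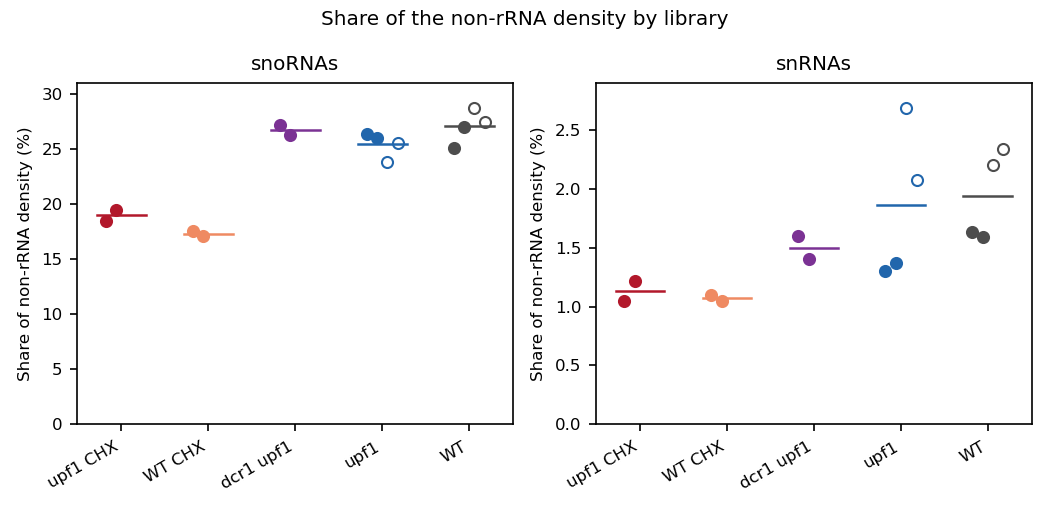
Share of the non-rRNA density (%) held by snoRNAs (left) and snRNAs (right) in each library, by group; lines are group means, filled points are replicates 1 and 2, open points replicates 3 and 4. The snoRNA share is 17.1% to 19.5% with cycloheximide and 23.8% to 28.8% without.

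Replicates of the same group differed in the levels of many members, by amounts that went with length among the snoRNAs. On the deposited scale, replicates 3 and 4 of upf1 and WT had less of most short snoRNAs and more of most long ones than replicates 1 and 2. Since this scale holds the middle of the snoRNAs near 0, members on both sides of it are what the scaling itself leads to. The mean of replicates 3 and 4 was the lower one for 13 of 19 short snoRNAs in upf1 and 16 of 19 in WT, and the higher one for 12 of 18 long snoRNAs in upf1 and 16 of 18 in WT. The 2 pairs of libraries did not overlap for 15 short and 13 long snoRNAs in upf1 and for 18 short and 15 long ones in WT. The same count was not made over all features, so it does not set the snoRNAs, or the snRNAs below, apart from other RNAs. The log2 ratio of replicates 3 and 4 over replicates 1 and 2 had a median of −0.24 for the short and 0.12 for the long snoRNAs in upf1, and of −0.39 and 0.25 in WT. Over all 7518 features tested the median was 0.24 in upf1, above that of the long snoRNAs, and 0.05 in WT, below it. The pairs of replicates were set against each other after this was seen, and nothing in the labels says that they differ in preparation, so the ratios carry no test.

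ENSRNA049639782 shows the pattern most clearly. It had 17.5 and 23.8 in upf1 replicates 3 and 4, against 55.5 and 54.7 in upf1 replicates 1 and 2, and 21.7 and 17.8 in WT replicates 3 and 4, against 46.4 and 51.6 in WT replicates 1 and 2. The other 6 libraries, all numbered 1 or 2, had 52.2 to 73.6. ENSRNA049639730 (94 nt) had 7.36 and 6.40 in upf1 replicates 3 and 4, against 15.2 and 14.7 in replicates 1 and 2, and 7.81 and 6.66 in WT replicates 3 and 4, against 14.7 and 16.6 in replicates 1 and 2.

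Among the long snoRNAs ENSRNA049639937 (194 nt; chromosome 2, 80809 to 81002, plus strand) had the widest spread, in the opposite direction. It had 121 and 136 in upf1 replicates 3 and 4, against 77.3 and 74.7 in replicates 1 and 2, and 151 and 147 in WT replicates 3 and 4, against 70.4 and 67.4 in replicates 1 and 2. Its neighbour ENSRNA049639915 (237 nt), 267 nt away on the opposite strand, ranged only from 136 to 172 over all libraries. All 3 snRNAs were higher in replicates 3 and 4 with no overlap, whatever their length. ENSRNA049639701 had 376 and 295 in upf1 replicates 3 and 4, against 145 and 157 in replicates 1 and 2, and 250 and 295 in WT replicates 3 and 4, against 194 and 163 in replicates 1 and 2. ENSRNA049639705 had 28.6 and 25.4 in upf1 replicates 3 and 4, against 15.4 and 15.5, and 38.6 and 36.1 in WT replicates 3 and 4, against 18.7 and 17.3.

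Across the 37 snoRNAs the log2 ratio of replicates 3 and 4 over 1 and 2 in upf1 and the same ratio in WT had a Pearson r of 0.87, and each ratio rose with log2 length (r of 0.46 in upf1 and 0.67 in WT). These are descriptions over RNAs that share libraries. The tRNAs, which are as short as the shortest snoRNAs (median 73 nt, 283 tested), had medians of −0.20 in upf1 and 0.14 in WT, and the 230 tested mRNAs of up to 355 nt had 0.22 and 0.05, close to the 0.24 and 0.05 of all 7518 features tested. What sets the replicates apart was not tested.

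**Figure D3:**
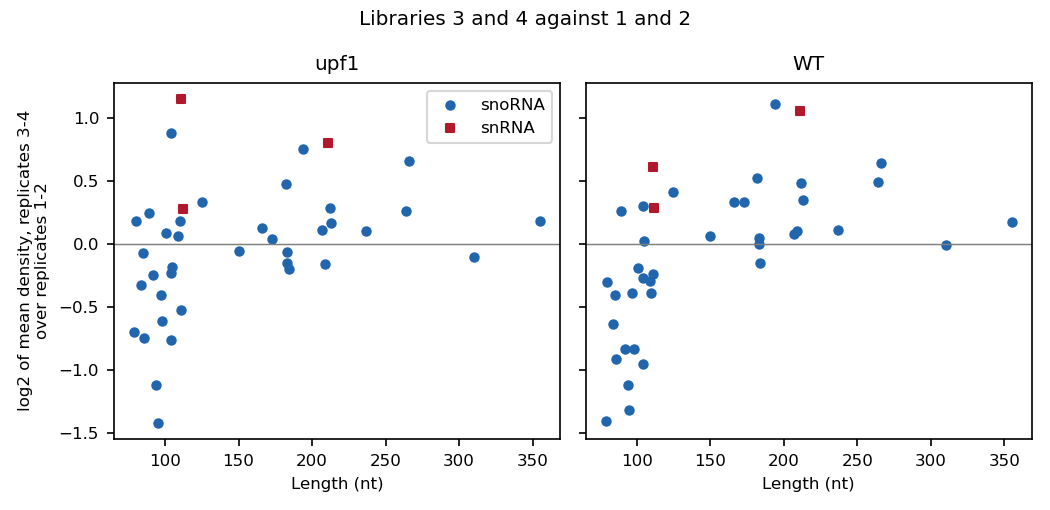
log2 ratio of the mean density in replicates 3 and 4 over that in replicates 1 and 2, for each snoRNA and snRNA by length (nt), in upf1 (left) and WT (right). Most short snoRNAs lie below 0 and most long ones above, with medians of −0.24 and 0.12 in upf1 and −0.39 and 0.25 in WT.

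The coefficient of variation over the 14 libraries had a median of 20.2% for the short snoRNAs, 8.93% for the long ones and 32.3% for the snRNAs. Over the 10 libraries numbered 1 or 2 these medians were 13.0%, 5.96% and 10.3%. The steadiest snoRNAs over all libraries were ENSRNA049639726 (207 nt; 4.52%, density 166 to 193), ENSRNA049639912 (183 nt; 6.14%) and ENSRNA049639710 (183 nt; 6.76%), and the most variable were ENSRNA049639782 (39.7%), ENSRNA049639937 (34.5%) and ENSRNA049639730 (30.6%). The SD within groups on the log2 scale had a median of 0.19 over the 40 members, against 0.18 over all features tested and 0.17 over the mRNAs. By these medians the members, most of which set the scaling, did not have a smaller spread between replicates than the mRNAs.

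Comparisons between groups were made for each feature with limma on log2(density + 0.02) over all 7518 features tested, and calls were made where the p adjusted by Benjamini-Hochberg was below 0.05. Replicates 1 and 2 are the only ones that every group holds, so counts of called members are also given over these alone and with the replicate number as a block.

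Cycloheximide lowered a few short snoRNAs relative to the others, in cells with and without Upf1. In WT CHX against WT 3 members were called lower and 3 higher, and in upf1 CHX against upf1 4 were lower and 3 higher. All that were lower are short snoRNAs. Over all features 0.146% were called lower and 94.1% higher in WT CHX against WT, and 0.239% lower and 84.4% higher in upf1 CHX against upf1. These shares show how the other RNAs moved relative to the snoRNAs, and since the scale holds the middle of the snoRNAs near 0, members on both sides of it are what the scaling itself leads to. The members' median log2 fold change was −0.04 in WT CHX against WT, with a range of −0.75 to 0.92, and −0.01 in upf1 CHX against upf1, with a range of −0.72 to 1.01, against 1.34 and 0.83 over all features tested.

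The called members with the lowest fold changes, ENSRNA049639776 and ENSRNA049639797, lie side by side with another snoRNA. ENSRNA049639819, ENSRNA049639776 and ENSRNA049639797 stand in tandem on the plus strand of chromosome 1, at 2502399 to 2502477, 2502841 to 2502941 and 2503086 to 2503165, separated by 363 and 144 nt, in the interval between the genes SEC59 and BUD22. ENSRNA049639776 (101 nt) had 3.998 and 3.50 in upf1 CHX, 4.25 and 3.76 in WT CHX, 5.75 and 5.77 in dcr1 upf1, 6.01, 5.996, 6.79 and 5.98 in upf1, and 7.35, 7.07, 6.37 and 6.29 in WT. All 4 libraries with cycloheximide lay below all 10 without it. Its log2 fold change was −0.72 in upf1 CHX against upf1 (SE 0.12, adjusted p = 3.2e-05) and −0.75 in WT CHX against WT (SE 0.12, adjusted p = 9.9e-06; limma). ENSRNA049639797 (80 nt) had 5.55 and 4.96 in upf1 CHX, 5.61 and 5.68 in WT CHX, 8.45 and 7.49 in dcr1 upf1, 6.84, 7.85, 9.24 and 7.42 in upf1, and 10.4, 9.46, 7.29 and 8.82 in WT, again without overlap between libraries with and without cycloheximide. It changed by −0.57 in upf1 CHX against upf1 (SE 0.15, adjusted p = 0.0019) and by −0.66 in WT CHX against WT (SE 0.15, adjusted p = 0.000395; limma). The calls of both were kept in all 23 alternatives run, in both comparisons. Leaving out a library of a group not compared leaves the fold change as it is, so these are not 23 separate checks.

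The third snoRNA of the row, ENSRNA049639819 (79 nt), had 2.72 and 2.95 in upf1 CHX, 2.97 and 3.47 in WT CHX, 3.80 and 3.60 in dcr1 upf1, 4.18, 4.16, 2.76 and 2.37 in upf1, and 4.97, 3.98, 1.54 and 1.86 in WT. The groups overlapped, and replicates 3 and 4 of upf1 and WT were lower than replicates 1 and 2. It was not called, at −0.20 in upf1 CHX against upf1 and 0.23 in WT CHX against WT. The direction in WT turned over replicates 1 and 2 alone, where it was called lower, at −0.55 in upf1 CHX against upf1 (limma, adjusted p = 4.8e-06) and −0.47 in WT CHX against WT (adjusted p = 9.8e-05).

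**Figure D4:**
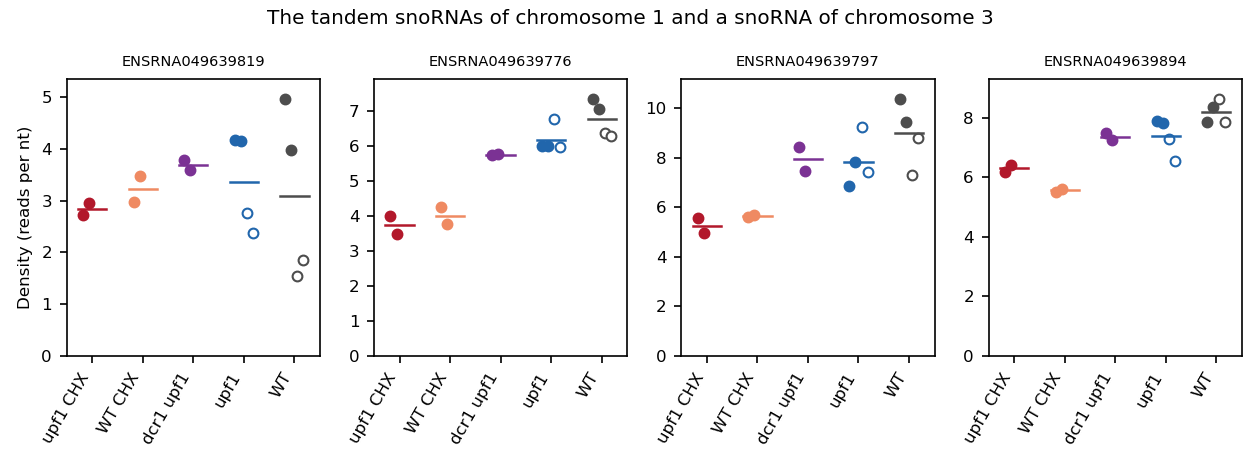
Density (reads per nt) in each library, by group, of the 3 tandem snoRNAs of chromosome 1 and of ENSRNA049639894; lines are group means, filled points replicates 1 and 2, open points replicates 3 and 4. ENSRNA049639776 has 3.50 to 4.25 with cycloheximide and 5.75 to 7.35 without.

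ENSRNA049639894 (105 nt; chromosome 3, 1058769 to 1058873, plus strand) had 6.16 and 6.42 in upf1 CHX and 5.51 and 5.59 in WT CHX, against 7.87, 7.81, 7.29 and 6.55 in upf1 and 7.84, 8.36, 8.62 and 7.86 in WT. It fell in WT CHX against WT, by 0.55 on the log2 scale (SE 0.11; limma, adjusted p = 0.000128), a call kept in all 23 alternatives, and was at −0.23 in upf1 CHX against upf1. ENSRNA049639877 (84 nt; chromosome 3, 687790 to 687873, plus strand) had 3.86 and 3.82 in upf1 CHX, against 6.16, 5.96, 5.11 and 4.58 in upf1 (log2 fold change −0.49, SE 0.18; limma, adjusted p = 0.0186). Its call was lost without upf1 CHX replicate 1 (−0.50) and without upf1 CHX replicate 2 (−0.48). ENSRNA049639779 (109 nt; chromosome 1, 2249554 to 2249662, minus strand) had 10.7 and 11.96 in upf1 CHX, against 13.7, 14.8, 16.04 and 13.7 in upf1 (−0.36, SE 0.12; limma, adjusted p = 0.013), a call lost without upf1 CHX replicate 1 (−0.28).

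The members called higher with cycloheximide changed less or less steadily. ENSRNA049639953 (86 nt; chromosome 2, 806183 to 806268, plus strand) had 26.5 and 29.7 in WT CHX, against 20.3, 22.04, 12.4 and 10.2 in WT. Its log2 fold change was 0.86 (SE 0.32, limma, adjusted p = 0.0225). Over replicates 1 and 2 alone it was 0.41 (limma, adjusted p = 0.00027) and with the replicate block 0.45 (adjusted p = 0.00051). It was thus smaller but still called in both. Its call was lost without WT CHX replicate 1 (0.95) or WT CHX replicate 2 (0.78). ENSRNA049639831 (111 nt; chromosome 1, 1105878 to 1105988, plus strand) had 4.89 and 4.81 in upf1 CHX, against 4.10, 4.44, 2.67 and 3.28 in upf1, and 5.41 and 5.48 in WT CHX, against 4.15, 4.77, 3.80 and 3.77 in WT. It rose by 0.45 and 0.41 (SE 0.17 each; limma, adjusted p = 0.02 and 0.0279). Over replicates 1 and 2 alone it was still called in the WT background, at 0.29 (limma, adjusted p = 0.0145). With the replicate block it was at 0.26 and 0.22 in the upf1 and WT backgrounds and no longer called. Its call was also lost without upf1 CHX replicate 1 (0.43) or 2 (0.46) in the upf1 background, where it stood at 0.19 over replicates 1 and 2 alone, and without WT CHX replicate 1 (0.42) or 2 (0.40) or WT replicate 3 or 4 (0.37 each) in the WT background. ENSRNA049639873 (184 nt, chromosome 3, 282911 to 283094, minus strand) was the only long snoRNA called in the fit to all libraries without a block. It had 129 and 130 in upf1 CHX, against 116, 120, 103 and 103 in upf1. It had 118 and 121 in WT CHX, against 109, 106, 95.1 and 98.9 in WT. The log2 fold changes were 0.23 and 0.22 (SE 0.10 each, limma, adjusted p = 0.0418 and 0.0433). These calls were lost in 11 of 23 alternatives each, among them the replicate block (0.14 and 0.13), replicates 1 and 2 alone (0.13 and 0.15), either library of the cycloheximide group (0.22 to 0.24 in upf1 and 0.20 to 0.24 in WT) and replicate 3 or 4 of the untreated group (0.20 each in upf1, and 0.19 and 0.21 in WT). In 1 more alternative, with size factors from mRNAs, both changes turned negative (−0.75 and −1.15) and were called lower. The snRNA ENSRNA049639882 had 40.3 and 45.1 in upf1 CHX, against 31.2, 29.9, 39.7 and 34.2 in upf1 (0.34, SE 0.15; limma, adjusted p = 0.038). Its call was lost without upf1 CHX replicate 1 (0.43) or 2 (0.26) and without upf1 replicate 1 (0.31) or 2 (0.29). The call was kept over replicates 1 and 2 alone (0.48, limma, adjusted p = 1.7e-05) and with the replicate block (0.48, adjusted p = 0.00014). In WT CHX against WT this snRNA was at −0.04.

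Leaving out replicates 3 and 4 brought more members past the threshold, most of them short snoRNAs. Over replicates 1 and 2 alone 8 members were lower and 4 higher in upf1 CHX against upf1, and 10 were lower and 5 higher in WT CHX against WT. Every one of the lower ones is a short snoRNA, and the 8 of upf1 were all among the 10 of WT. Over all features this fit called 0.576% lower and 91.1% higher in the upf1 background and 0.327% lower and 95.5% higher in the WT background. ENSRNA049639877 stood at −0.65 and −0.66 in the upf1 and WT backgrounds, ENSRNA049639828 at −0.43 and −0.45, and ENSRNA049639704 (97 nt) at −0.30 and −0.51. Higher in upf1 CHX against upf1 were the snRNAs ENSRNA049639882 (0.48) and ENSRNA049639701 (0.28) and the short snoRNAs ENSRNA049639743 (0.33) and ENSRNA049639782 (0.29). ENSRNA049639701 was at −0.29 with all libraries and no block. Higher in WT CHX against WT were the short ENSRNA049639953 (0.41), ENSRNA049639831 (0.29) and ENSRNA049639782 (0.27) and the long ENSRNA049639850 (0.25) and ENSRNA049639944 (0.21). With the replicate block 9 members were lower in each background, all of them short snoRNAs, and 2 were higher in upf1 CHX against upf1 and 3 in WT CHX against WT. That fit called 0.412% of all features lower and 88.4% higher in the upf1 background and 0.253% lower and 94.8% higher in the WT background.

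Members that were low after cycloheximide in one background tended to be low in the other. Over the 40 members the log2 fold changes in upf1 CHX against upf1 and in WT CHX against WT had a Pearson r of 0.89 and a Spearman rho of 0.83, and 35 of 40 had the same sign, a description over RNAs that share the libraries and the scaling. The comparisons share no library, but in both the untreated group alone holds replicates 3 and 4, whose departure from replicates 1 and 2 was alike in upf1 and WT and enters both fold changes. With the replicate block the values were an r of 0.84, a rho of 0.75 and 32 of 40, and over replicates 1 and 2 alone an r of 0.88, a rho of 0.66 and 31 of 40. ENSRNA049639782 was at 1.01 in upf1 CHX against upf1 and 0.92 in WT CHX against WT, and at 0.29 and 0.27 over replicates 1 and 2 alone. The test of the difference between them (interaction, limma) called 0 members, with 1 at an unadjusted p under 0.05 and 0 by limma's voom, against 0.0133% of all features called higher and 21.4% lower. With the replicate block it called 1 member higher, the snRNA ENSRNA049639882 (0.38, adjusted p = 0.046), against 0.12% of all features higher and 32.2% lower.

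**Figure D5:**
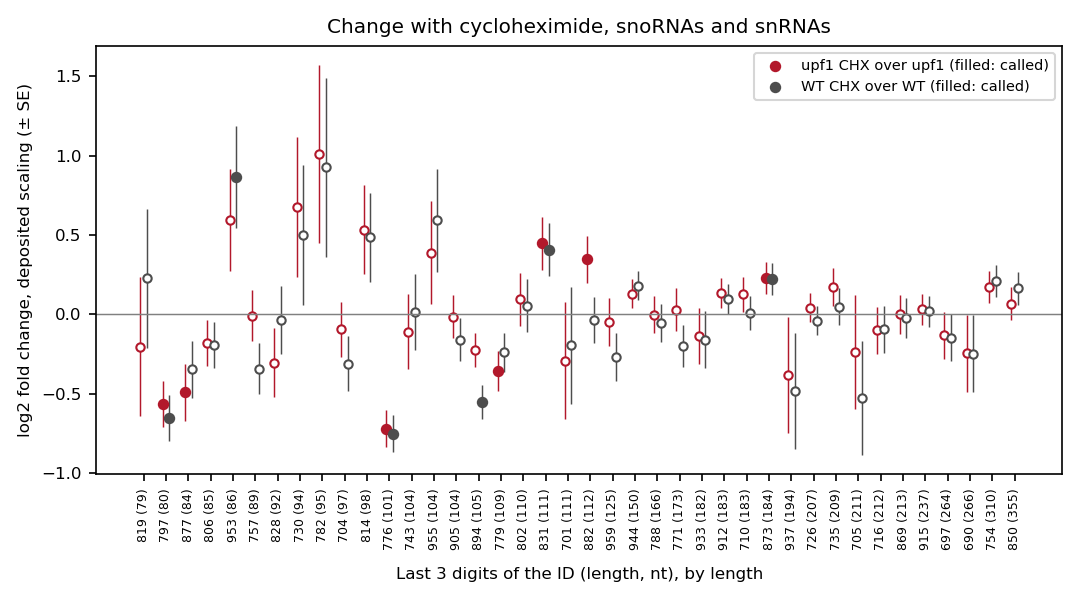
log2 fold change of each member with cycloheximide on the deposited scale (± SE), in upf1 CHX over upf1 and in WT CHX over WT, ordered by length; filled points passed an adjusted p under 0.05. The lowest are ENSRNA049639776 (−0.72 and −0.75) and ENSRNA049639797 (−0.57 and −0.66).

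Relative to the mRNAs nearly all members fell with cycloheximide. With the size factors recomputed from mRNAs (mRNA-ratio scaling) the members' median log2 fold change was −0.98 in upf1 CHX against upf1, where 33 of 40 were called lower and 0 higher, and −1.41 in WT CHX against WT, where 34 were lower and 0 higher. Over all features 25.3% were lower and 18.4% higher in upf1 CHX against upf1, and 20.3% lower and 35.3% higher in WT CHX against WT, under the same scaling. The interaction then called 3 members higher and 0 lower, against 0.519% of all features higher and 13.4% lower. Under it ENSRNA049639776 stood at −1.69 and −2.11 and ENSRNA049639797 at −1.54 and −2.02. The members called higher on the deposited scale had negative values here. ENSRNA049639873 (−0.75 and −1.15), ENSRNA049639882 in upf1 CHX against upf1 (−0.63) and ENSRNA049639831 in WT CHX against WT (−0.96) were called lower. ENSRNA049639831 in upf1 CHX against upf1 (−0.53; limma, adjusted p = 0.115) and ENSRNA049639953 in WT CHX against WT (−0.50; adjusted p = 0.291) were not called.

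No member passed the test between untreated cells without and with Upf1. In upf1 against WT limma called 0 of 40, with 0 at an unadjusted p under 0.05 and 0 by voom, while 40.5% of all features were called higher and 0.585% lower. The members' log2 fold changes ran from −0.34 to 0.25 with a median of −0.01 and a median SE of 0.12, against a median of 0.25 over all features. With the replicate block the snRNA ENSRNA049639705 was lower (−0.34, adjusted p = 0.00076), where 1.21% of all features were lower and 45.2% higher. It had 28.6, 25.4, 15.4 and 15.5 in upf1 replicates 3, 4, 1 and 2, against 38.6, 36.1, 18.7 and 17.3 in WT replicates 3, 4, 1 and 2. Over replicates 1 and 2 alone 3 short snoRNAs were lower, ENSRNA049639797 (−0.43), ENSRNA049639802 (−0.39) and ENSRNA049639828 (−0.29), against 4.32% of all features lower and 36.9% higher. Under mRNA-ratio scaling 23 members were lower and 0 higher, with a median of −0.34, against 23.8% of all features lower and 29.9% higher.

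Few or no members passed in the comparisons within cycloheximide-treated cells and with dcr1 upf1. In upf1 CHX against WT CHX 0 of 40 were called by limma, with 0 at an unadjusted p under 0.05 and 0 by voom (range −0.27 to 0.23), against 4.27% of all features higher and 0.984% lower. It stayed at 0 under mRNA-ratio scaling (8.75% higher and 5.25% lower of all features), with the replicate block (7.69% and 4.31%) and over replicates 1 and 2 alone (10.6% and 11.7%). In dcr1 upf1 against upf1 0 were called, with 1 at an unadjusted p under 0.05 and 0 by voom (range −0.48 to 0.75), against 0.333% higher and 0.173% lower, and 0 under mRNA-ratio scaling (0.545% and 0.146%), with the block (0.479% and 0.253%) and over replicates 1 and 2 alone (0.733% and 0.445%). In dcr1 upf1 against WT 1 was called higher and 0 lower, against 28.8% and 3.29% of all features. This was ENSRNA049639873, at 124 and 123 in dcr1 upf1, against 109, 106, 95.1 and 98.9 in WT (0.27, SE 0.10; limma, adjusted p = 0.0456). The call was lost in 16 of 23 alternatives, among them leaving out either dcr1 upf1 library, WT replicate 3 or WT replicate 4. Over replicates 1 and 2 alone it was not called (0.20) and 4 short snoRNAs were lower, against 7.44% of all features lower and 34.5% higher. These were ENSRNA049639802 (−0.38), ENSRNA049639776 (−0.32), ENSRNA049639797 (−0.32) and ENSRNA049639806 (−0.28). With the replicate block 0 members were called (32% of all features higher and 2.81% lower), and under mRNA-ratio scaling 7 were lower and 0 higher, with a median of −0.19 (29.8% higher and 22.1% lower).

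Members were spread over 8 of the chromosomes, with 12 on chromosome 1. No other feature overlapped 29 of the 40. Of the remaining, 9 were overlapped on the opposite strand by a CUT, XUT or SUT, classes of unstable or unannotated non-coding transcripts. The densest of these was SUT143, opposite ENSRNA049639710, at 2.32 to 4.13, against 73.6 to 95.5 for the snoRNA itself. The other 8 overlapping transcripts stayed at or below 0.182 in every library.

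The other 2 members lie inside the span of an mRNA on the same strand, and the density of the gene includes reads of the snoRNA to different degrees. ENSRNA049639788 (166 nt; chromosome 1, 432960 to 433125) lies within NCAS_0A02300, a gene with no symbol in RefSeq (769 nt; 432746 to 433514, plus strand). Its reads equalled 91.1% to 95.8% of those listed for the gene, and the gene's count exceeded the snoRNA's by 1253 to 3171 reads. NCAS_0A02300 had a density of 43.9 ± 0.351 in upf1 CHX, 43.1 ± 1.68 in WT CHX and 39.2 ± 3.47 in dcr1 upf1 (SD, n = 2 each). It had 43.1 ± 3.15 in upf1 and 43.6 ± 5.82 in WT (SD, n = 4 each). If the snoRNA's reads are counted in both rows, the rest of the gene had 4.34 ± 0.197 in upf1 CHX and 4.83 ± 0.269 in WT CHX. On the same assumption it had 2.19 ± 0.07 in dcr1 upf1, 3.05 ± 0.750 in upf1 and 3.13 ± 0.485 in WT. The listed value of the gene changed by −0.01 on the log2 scale in WT CHX against WT, where the median mRNA changed by 1.35.

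ENSRNA049639743 (104 nt; chromosome 10, 174371 to 174474) lies within EFB1, the gene for a translation elongation factor subunit (955 nt; 174183 to 175137, plus strand), whose S. cerevisiae counterpart carries a snoRNA in its intron. Here the snoRNA's reads equalled only 1.46% to 3.75% of the gene's. The snoRNA had 3.83 and 3.90 in upf1 CHX, 4.17 and 4.09 in WT CHX, 3.06 and 3.21 in dcr1 upf1, 2.88, 3.28, 6.16 and 5.16 in upf1, and 3.58, 3.77, 4.38 and 4.69 in WT, and it was the short snoRNA that rose most in upf1 replicates 3 and 4. EFB1 itself was higher by 0.60 in WT CHX against WT (SE 0.11; limma, adjusted p = 3.9e-05), while ENSRNA049639743 stood at 0.02. That snoRNA was called higher there with the replicate block (0.31; limma, adjusted p = 0.0296), and over replicates 1 and 2 alone it stood at 0.17 and was not called. Reads of an EFB1 precursor and reads of the snoRNA cannot be told apart at this position.

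The genes for the proteins that build and hold these RNAs are given by lists of their S. cerevisiae names. In upf1 against WT, where 40.5% of all features were higher, none of the 5 genes for box C/D core proteins passed, and of the 4 for box H/ACA core proteins NOP10 was higher (0.58; limma, adjusted p = 0.0017) and CBF5 lower (−0.59; adjusted p = 0.047, lost in 16 of 23 alternatives, among them the replicate block at an adjusted p of 0.0502 and leaving out any 1 of the WT libraries and upf1 replicate 1 or 2). Of 9 snoRNP assembly genes 3 were higher: TAH1, an Hsp90 cofactor that acts in box C/D assembly (3.68), HIT1 (0.97) and BCD1 (0.42, lost over replicates 1 and 2 alone at 0.28, under mRNA-ratio scaling at 0.12, and without WT replicate 2 or 3 or upf1 replicate 3 or 4). None of 11 genes for snoRNA transcription end and processing passed. Among spliceosomal genes 1 of 7 for the Sm ring was higher (SMX3, 1.82), 0 of 7 for the Lsm ring, 8 of 21 for U1 and U2 proteins, led by HSH49 (1.76), PRP21 (1.54) and YSF3 (1.40), and 7 of 14 for tri-snRNP proteins, led by SNU23 (2.08) and PRP38 (1.58). The medians of these 8 lists ran from −0.10 to 0.36, against 0.25 over all features. Under mRNA-ratio scaling, where 29.9% of all features were higher and 23.8% lower, the counts were 0 higher and 5 lower for box C/D core, 1 and 2 for box H/ACA core, 2 and 2 for assembly, 0 and 4 for processing, 1 and 2 for Sm, 0 and 5 for Lsm, 8 and 1 for U1 and U2, and 6 and 3 for tri-snRNP genes.

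In WT CHX against WT, where 94.1% of all features were higher, all 5 box C/D core genes, 3 of 4 box H/ACA core genes, 9 of 9 assembly genes, 10 of 11 processing genes, 7 of 7 Sm, 5 of 7 Lsm, 21 of 21 U1 and U2 and 14 of 14 tri-snRNP genes were higher on the deposited scale. Under mRNA-ratio scaling, where 35.3% of all features were higher and 20.3% lower, 4 of the box C/D core genes (median −0.62), 3 of the box H/ACA core genes (median −0.50) and 6 of the Lsm genes (median −0.69) were lower and 0 of each higher, while 19 of the U1 and U2 genes (median 0.48) were higher and 0 lower. The medians of the other lists under that scaling were 0.23 for assembly, −0.13 for processing, −0.15 for the Sm ring and 0.40 for tri-snRNP genes. In upf1 CHX against upf1, where 84.4% of all features were higher, 2 of 5 box C/D core, 1 of 4 box H/ACA core, 8 of 9 assembly, 10 of 11 processing, 7 of 7 Sm, 4 of 7 Lsm, 21 of 21 U1 and U2 and 13 of 14 tri-snRNP genes were higher on the deposited scale and 0 lower. Under mRNA-ratio scaling (18.4% of all features higher and 25.3% lower) 4 box C/D core, 4 box H/ACA core and 6 Lsm genes were lower and 0 of each higher, 12 U1 and U2 genes were higher and 1 lower, and 2 tri-snRNP genes were higher and 3 lower (median −0.04). In dcr1 upf1 against WT 28.8% of all features were higher and 3.29% lower. Counts higher and lower were 0 and 1 for box C/D core, 0 and 1 for box H/ACA core, 2 and 0 for assembly and 0 and 1 for processing. They were 1 and 0 for Sm, 0 and 0 for Lsm, 7 and 0 for U1 and U2, and 4 and 1 for tri-snRNP genes. TAH1 (3.35), HSH49 (1.65), SMX3 (1.61) and SNU23 (1.95) were higher and CBF5 was lower (−1.39, limma, adjusted p = 0.0011), each in all 23 alternatives. PRP21, PRP38 and YSF3 were also higher in all 23. HIT1 and PRP4 (higher) and NOP58, NRD1 and PRP8 (lower) lost their calls in some. These lists were drawn up with earlier results of these libraries known and carry no test of their own.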

How the data were processed

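Total RNA was depleted of ribosomal RNA and made into strand-specific libraries, per the labels' protocols. Per the submitters' processing notes the tools were Trim Galore, featureCounts 2.0.0, HISAT2 2.2.0 and DESeq2; for build and annotation, the sources used here name none. The authors deposited normalised densities, a signal in reads per nucleotide. In all 14 libraries 100% of values times length were whole multiples of 1 step within 0.01 reads, which gave reads and size factors. Of 8602 lines 259 repeated a position (257 tRNA, 2 rRNA) and were left out. Groups come from the sample titles. limma 3.58.1 (R 4.3.3; trend, robust) was fitted to log2(density + 0.02) of all libraries with 5 group means (9 residual degrees of freedom), for 7518 features of mean density of at least 0.02, which understates changes of low features. The procedure was tested on simulated data. Alternatives were pseudocounts of 0.005 and 0.1, no filter and a minimum of 0.1, mRNA-ratio scaling, the replicate block, replicates 1 and 2 alone, the compared groups alone and each library left out; voom on recovered reads was added after the data were seen.

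In upf1 and WT, deviations from the group means had correlations of 0.365, 0.432, 0.209 and 0.354 between equally numbered libraries. The mean correlation was 0.364 between upf1 and WT libraries both numbered 1 or 2, or both 3 or 4. Across these sets it was −0.362, which the mean within the sets nearly fixes, since deviations from a group mean sum to 0. The numbers thus set replicates 1 and 2 apart from 3 and 4, and beyond that do not show pairs. The fit without the block stayed the main one, and the block is an alternative. The other groups hold replicates 1 and 2 alone, with correlations of −0.04 to 0.06. Members are named by rule: the snRNAs, the 8 densest and 3 scarcest snoRNAs, the 3 most and least variable, called members, and up to 3 called genes each way per protein list; a few named for their position were chosen after their values were seen. The members and lists were chosen with earlier results of these data known. Reads are not independent molecules, and counts as low as 91 reads limit the precision of the scarcest snoRNAs.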

Additional observations from a re-analysis of the deposited data

Results flagged for a closer look

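Groups of 4 libraries were checked by the Dixon criterion, 84 in all (40 members and the 2 shares, in upf1 and WT). In 2 of them 1 library stood apart from the others. Chance gives about 1 in 20 where the 4 libraries are alike. Where replicates 3 and 4 stand apart from replicates 1 and 2, a single library is less easily flagged. The count therefore does not show that outliers are rare. ENSRNA049639869 had 256 in upf1 replicate 4, against 211 to 218 in the other upf1 libraries. ENSRNA049639776 had 6.79 in upf1 replicate 3, against 5.98 to 6.01 in the others; its fall in upf1 CHX against upf1 was called with and without that library. No member was called in the test of the difference between the effects of cycloheximide in upf1 and in WT.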

How the results depend on the processing

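Alternatives that left out a library gave these ranges of members called: 0 to 3 higher and 2 to 5 lower in upf1 CHX against upf1, 0 to 5 higher and 3 to 6 lower in WT CHX against WT, and 0 to 1 higher and 0 to 1 lower in dcr1 upf1 against WT, with 0 in the other comparisons. The counts without either cycloheximide library of a group were 0 higher, and without WT replicate 3 or 4 they were 1 higher in WT CHX against WT. Size factors from mRNAs gave 0 members higher and 33 lower in upf1 CHX against upf1, 0 higher and 34 lower in WT CHX against WT, 23 lower in upf1 against WT, 0 higher and 7 lower in dcr1 upf1 against WT, and 3 higher in the interaction. Under it 6 values called higher changed sign: ENSRNA049639831 (−0.53 in upf1 CHX against upf1 and −0.96 in WT CHX against WT), ENSRNA049639873 (−0.75 and −1.15), ENSRNA049639953 (−0.50, WT CHX against WT) and ENSRNA049639882 (−0.63, upf1 CHX against upf1). Of these ENSRNA049639831 in upf1 CHX against upf1 and ENSRNA049639953 were not called in the new direction; the alternative sets levels relative to mRNAs in place of snoRNAs.

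The replicate block gave 9 lower in each cycloheximide comparison, 1 lower in upf1 against WT, 0 higher in dcr1 upf1 against WT and 1 higher in the interaction. Replicates 1 and 2 alone gave 8 lower in upf1 CHX against upf1, 5 higher and 10 lower in WT CHX against WT, 3 lower in upf1 against WT, and 0 higher and 4 lower in dcr1 upf1 against WT. The compared groups alone gave 1 higher in upf1 CHX against upf1, 5 lower in WT CHX against WT, and 0 higher and 4 lower in dcr1 upf1 against WT. In the last comparison 0 were higher with a pseudocount of 0.1, a minimum density of 0.1 or voom. The cause of these differences was not tested.

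As a share of reads the snoRNAs had 4.55% in upf1 CHX, 4.01% in WT CHX, 7.13% in dcr1 upf1, 6.81% in upf1 and 7.39% in WT, and without the densest snoRNA their share of the density was 16.2% in upf1 CHX, 14.6% in WT CHX, 23.2% in dcr1 upf1, 22.1% in upf1 and 23.8% in WT. Planned fits with edgeR on recovered reads were not run. Groups of 2 libraries limit every comparison with cycloheximide or dcr1 upf1, and when 1 of them is left out the other is assumed to vary like the other groups.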
